A study of Mus musculus with 8 samples.

Results

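Integrins and the main selectin ligand of leukocytes were followed across 2 tissues in sorted mouse eosinophils. The group holds 9 genes, chosen by symbol from the 38392 genes measured: the α subunits Itgal, Itgam, Itgax, Itga4 and Itgae, the β subunits Itgb2, Itgb1 and Itgb7, and Selplg. Every one was present once in the table and had a mean above 10 reads over the 8 libraries, the lowest mean being 83.9 reads. RNA was sequenced from eosinophils of wildtype female C57/BL6 mice, with 4 libraries from bone marrow and 4 from small intestine. The comparison asked how cells resident in the gut wall differ from those at their site of production. The mice received no treatment, and the labels give no age. Bone marrow cells were flushed out and sorted as CD11b+, Ly6G-, Ly6C-, SiglecF+ and SSChi. Intestinal cells were freed by warm enzymatic digestion after removal of the epithelium, enriched on beads against CD11b, and sorted as CD11b+, MHC-II-, SiglecF+ and SSChi. Tissue and handling therefore changed together and cannot be told apart. CD11b is the protein of Itgam, so the product of 1 of the 9 genes was a criterion of both gates and the target of the intestinal beads.

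Integrins are adhesion receptors made of an α and a β subunit, and a subunit reaches the cell surface mainly when paired. Rolling of leukocytes along a vessel wall is mediated by selectins that bind sugars on PSGL-1, the product of Selplg. Arrest and exit from the vessel then rely on integrins: the β2 integrins bind ICAM proteins and complement fragments, α4β1 binds VCAM-1 and fibronectin, α4β7 binds MAdCAM-1 on gut vessels, and αEβ7 binds E-cadherin on epithelial cells.

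Reads assigned to genes numbered from 11508002 to 21289164 per library. Among the defining markers of the label, Siglecf stood at 580 ± 66.0 normalised counts in the bone marrow libraries and 3076 ± 516 in the intestinal libraries (mean ± SD, n = 4 libraries each, as for all such values here). The granule genes Epx and Prg2 stood at 350 ± 40.2 and 1831 ± 396 in bone marrow and at 20.6 ± 9.06 and 147 ± 40.7 in small intestine. The receptor genes Ccr3 and Il5ra were low in bone marrow, at 70.9 ± 25.7 and 11 ± 5.31, and stood at 16351 ± 2623 and 1107 ± 222 in small intestine. In bone marrow, Mpo, the myeloperoxidase gene of neutrophil precursors, stood at 149860.3 ± 19352 normalised counts, against 165 ± 26.1 in small intestine. Per kilobase of exon, Mpo was at 43768 in bone marrow, where Prg2 was at 2185 and Epx at 128. In Mpo, Ccr3 and Il5ra the bone marrow libraries went against their eosinophil label, whereas Epx and Prg2 were higher in them than in small intestine. Bone marrow below stands for the libraries so labelled. All 4 of them held Mpo far above small intestine, so no comparison was possible without them. A normalised count is the number of reads divided by the size factor of the library. A difference is the mean of small intestine less that of bone marrow, on the log2 scale of the deposited values, where a step of 1 is a doubling except in genes with few reads, and each is followed by its standard error (SE) from limma. Adjusted p-values are 2-sided limma values with Benjamini-Hochberg adjustment over all 38392 genes, called below 0.05. The methods of the study describe replicates as separate mice, so the p-values measure the spread between libraries of different animals, prepared in 1 study. In bulk RNA, fewer cells of a type and less RNA per cell cannot be told apart.

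Of the 9 genes, 7 were called higher in small intestine, 1 was called lower (Itgae) and 1 was not called (Itgb1). Over all genes, 22% were called higher and 12.9% lower, and among the 16215 genes averaging 10 reads or more these shares were 34.6% and 28.6%. The lowest intestinal library lay above the highest bone marrow library for 8 genes and the order was the opposite for Itgae, where 20.3% and 13.9% of all genes showed such a separation in the respective direction. The median difference was 1.52 over the 9 genes, 0.37 over all genes and 0.12 over those averaging 10 reads or more. Centring each library on its median over all genes lowered every difference by 0.90. Only Itgax, Itga4 and Itgb7 were then called higher, and Itgae was called lower. Under it 14501 of the 38392 genes were called, and 29.5% of those calls were higher. It left 4 of the 9 genes without overlap, for which no share over all genes is given. This median lies among genes with few reads, since only 16215 of the 38392 averaged 10 reads or more. Centring on the median of those left 6 of the 9 called higher and 1 lower (12392 of all genes called, 59.5% of them higher).

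**Figure D1:**
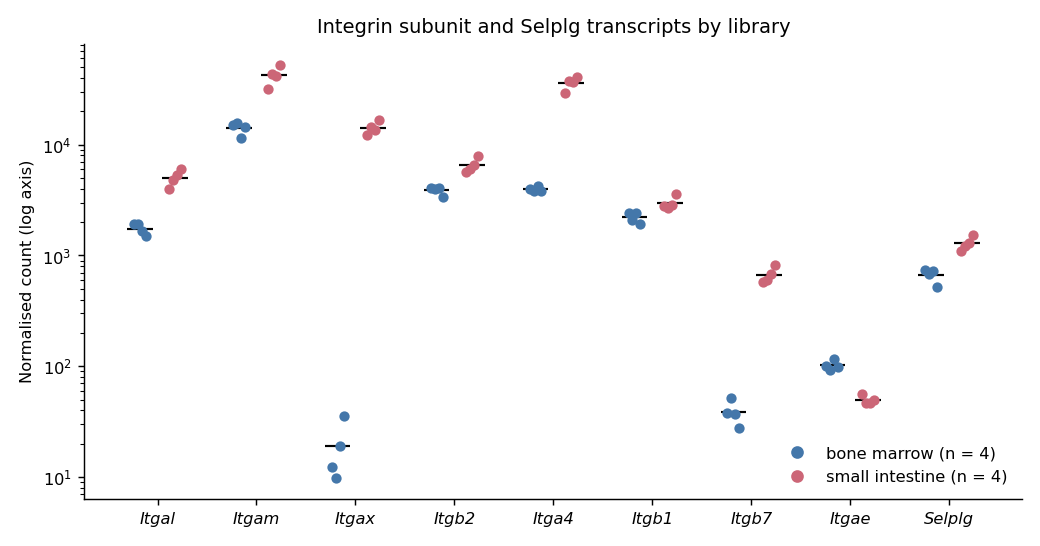
Normalised counts of the 9 genes (log axis) in each of the 4 bone marrow and 4 small intestine libraries, with points for libraries and bars for tissue means. Itgax spans from 9.78 to 16613, whereas the bone marrow and small intestine libraries of Itgb1 lie between 1937 and 3587.

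The β2 integrins share the subunit Itgb2 and differ in their α chain: Itgal gives LFA-1, Itgam gives Mac-1 (CD11b/CD18), and Itgax gives CD11c/CD18. All 3 α genes lie on the plus strand of chromosome 7 in GRCm38: Itgal (ENSMUSG00000030830) at 127296260 to 127335138, Itgam (ENSMUSG00000030786) at 128062640 to 128118491 and Itgax (ENSMUSG00000030789) at 128129547 to 128150657. Itgam and Itgax are neighbours, and their promoter windows are shown because these adjacent genes had very unequal differences. Each window runs from 250 bases before to 50 bases after the RefSeq start, on the plus strand of GRCm38.p6: chr7:128062390-128062689 for Itgam and chr7:128129300-128129599 for Itgax. Capitals mark matches, on either strand, to the core letters bound by myeloid and lymphoid factors that were searched for. These were GAGGAA for PU.1, present in 28.3% of 32851 mouse promoter windows of the same length. For GATA factors they were AGATAA, which 11.2% of those windows held. The RUNX core was taken as TGTGGT, with matches in 16.8% of the windows. For AHR the letters were GCGTG, found in 32.4%.
Itgam: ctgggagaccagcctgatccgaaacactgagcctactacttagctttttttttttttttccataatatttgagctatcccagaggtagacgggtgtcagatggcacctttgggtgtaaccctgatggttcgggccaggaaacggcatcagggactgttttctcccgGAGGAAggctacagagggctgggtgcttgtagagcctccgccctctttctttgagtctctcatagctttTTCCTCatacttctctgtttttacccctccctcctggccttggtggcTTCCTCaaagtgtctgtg
Itgax: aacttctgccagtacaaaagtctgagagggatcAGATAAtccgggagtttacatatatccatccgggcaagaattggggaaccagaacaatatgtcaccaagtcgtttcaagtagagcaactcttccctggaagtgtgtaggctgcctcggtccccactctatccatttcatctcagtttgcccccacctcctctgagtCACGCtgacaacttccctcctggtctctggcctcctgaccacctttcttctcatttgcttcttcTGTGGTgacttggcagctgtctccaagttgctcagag
The Itgam window held the PU.1 letters 3 times, from -84 to -79, from -15 to -10 and from 32 to 37 relative to the start, the later pair on the minus strand. The Itgax window held no PU.1 match, and had the GATA letters from -217 to -212, those of AHR on the minus strand from -51 to -47 and those of RUNX from 13 to 18. None of these matches overlapped another, and each is a description of the letters only.

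Itgax had the largest difference of the 9 genes and ranked 18 of 38392 from the top. It stood at 12.3, 9.78, 19.1 and 35.3 normalised counts in BM_1, BM_3, BM_4 and BM_5 (15 to 38 reads), and at 12189, 14554, 13527 and 16613 in SI_6, SI_7, SI_10 and SI_11. All intestinal libraries were far above all bone marrow libraries, and BM_5 was the highest of the latter. The means were 19.1 ± 11.5 and 14221 ± 1866, a 744-fold ratio, and the difference was 9.41 ± 0.34 (adjusted p = 7.36e-07, 95% interval 8.63 to 10.19). By abundance Itgax moved from rank 12208 among all genes in bone marrow to rank 123 in small intestine. CD11c is also carried by dendritic cells and many macrophages, of which the MHC-II- gate of the intestinal sort would remove those with MHC-II on their surface. The summed level of 10 dendritic cell markers was 530 to 650 in bone marrow and 1877 to 12111 in small intestine, with 6 called higher and 1 lower. Most of the intestinal sum was Cd74 and the MHC-II genes H2-Aa, H2-Ab1 and H2-Eb1, at 3141 ± 2251, 1677 ± 1218, 1093 ± 817 and 446 ± 356. Of the rest, Zbtb46 (75.8 ± 14.4 in small intestine) and Xcr1 (10.7 ± 6.67) were called higher and Clec9a lower. Flt3, Cd209a and Ccr7 were not called. Among the intestinal libraries, SI_6 had the lowest Itgax and the highest dendritic cell sum. However, SI_6 was the lowest for 7 of the 9 genes and also had the highest epithelial, fibroblast, and B and plasma cell sums. The sum of 10 macrophage markers was 618 to 768 and 14607 to 17549, with 7 called higher. Most of the intestinal sum was Adgre1 (F4/80), which eosinophils also express, at 161 ± 22.1 and 13672 ± 1373. Without it, the other 9 summed to 463 to 631 and 1798 to 2841, and Fcgr1, Mrc1 and Cd163 were not called. Neither list had a gene at 0 in a tissue, and their part in the Itgax difference was not tested.

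Itgam was the most abundant of the 9 genes in both tissues. It stood at 14922, 15566, 11499 and 14559.7 normalised counts in the bone marrow libraries and at 31614, 43287, 41784 and 52642 in the intestinal libraries, in the same order as above. The tissues did not overlap, and BM_4 and SI_6 were the lowest of each. The means were 14137 ± 1807 and 42332 ± 8609.9, and the difference was 1.57 ± 0.22 (adjusted p = 0.000702). Among all genes, its mean ranked 49 in bone marrow and 19 in small intestine. Itgal was lower throughout, at 1905, 1921, 1677 and 1497 in bone marrow and 3995, 4836, 5288 and 6054 in small intestine. Again every intestinal library exceeded every bone marrow library, and the difference was 1.52 ± 0.20 (means 1750.2 ± 202 and 5043 ± 861, adjusted p = 0.000561). With each library centred on its median over all genes, Itgam and Itgal kept their direction at 0.67 and 0.62 but were not called (limma adjusted p = 0.268 and 0.300). Itgam is also expressed in neutrophils and their precursors, whose 12 markers summed to between 466599.8 and 602160.4 normalised counts in bone marrow and between 44888 and 63908 in small intestine, with 9 called lower and 3 higher. Most of the intestinal sum was Retnlg, at 421 ± 249 in bone marrow and 45675 ± 7373 in small intestine. Mmp9 (50.7 ± 24.5 and 7336 ± 1028) and Mmp8 (22.1 ± 7.38 and 49.7 ± 12.1) were the others called higher. Among the 9 called lower, Elane stood at 79791 ± 14221 and 80.5 ± 8.58. No gene of that list was at 0 in a tissue, and its part in the Itgam level was not tested. In GENCODE M21 the predicted gene Gm49368 shares 3450 exon bases with Itgam on the same strand, 68.7% of its exon length, so the Itgam level is uncertain where the authors' annotation held both genes, which is not known here. Gm49368 was not analysed here.

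Itgb2 (ENSMUSG00000000290, chromosome 10, 77530252 to 77565708, plus strand) encodes CD18, the chain shared by all β2 integrins. It stood at 4082, 4005, 4099 and 3396 normalised counts in bone marrow and at 5608, 6029.7, 6510.1 and 7847 in small intestine. The tissues did not overlap, with BM_5 well under the other bone marrow libraries and SI_11 the highest. The means were 3896 ± 336 and 6499 ± 971, a ratio of 1.67, and the difference was 0.73 ± 0.19 (adjusted p = 0.0166). That call depended on scaling: the difference was 0.67 with libraries centred on the median of genes with at least 10 reads (limma adjusted p = 0.0568), 0.15 after quantile normalisation (0.493) and -0.17, the opposite direction, with libraries centred on the median of all genes (0.795). Itgad, the αD gene next to Itgax, stood at 20.8 ± 7.68 and 86 ± 15.9, a difference of 1.92 ± 0.29 (adjusted p = 0.00102).

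The α4 chain pairs with the product of Itgb1 or Itgb7, and αE with that of Itgb7. Itga4 (ENSMUSG00000027009, chromosome 2, 79255426 to 79333123, plus strand) stood at 3978, 3827, 4249 and 3789 normalised counts in bone marrow and at 29125, 37379, 36597 and 40455 in small intestine. The bone marrow libraries were close together, with an SD of 0.07 on the deposited scale, the smallest of any of the 9 genes in either tissue, and every intestinal library was far above them. The means were 3961 ± 208 and 35889 ± 4807, a 9.06-fold ratio, and the difference was 3.17 ± 0.18 (adjusted p = 6.13e-06, 95% interval 2.75 to 3.59). By abundance Itga4 moved from rank 417 to rank 27 among all genes. Cerkl, on the opposite strand, shares 1124 exon bases, 8.04% of the Itga4 exon length, and the strand setting of the counting is not given in the sources used here. Cerkl itself stood at 35.8 ± 10.7 and 134 ± 24.2 (difference 1.83 ± 0.26, adjusted p = 0.00075), far under Itga4. The Itga4 promoter window (chr2:79255176-79255475, plus strand) held the RUNX letters on the minus strand from -60 to -55 and those of AHR from 8 to 12.

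The partners of α4 differed from each other in their change. Itgb7 (ENSMUSG00000001281, chromosome 15, 102215995 to 102231944, minus strand), the β chain of the gut-homing receptor α4β7, stood at 38.3, 51.5, 37.3 and 27.9 normalised counts in bone marrow (30 to 79 reads) and at 572, 596, 687 and 829 in small intestine. No intestinal library came near the bone marrow range. The means were 38.8 ± 9.72 and 671 ± 116, a 17.3-fold ratio, and the difference was 4.0 ± 0.23 (adjusted p = 6.44e-06, 95% interval 3.47 to 4.54). Itgb1 (ENSMUSG00000025809, chromosome 8, 128685654 to 128733200, plus strand), the β chain of many matrix receptors, stood at 2403, 2105, 2432 and 1937 in bone marrow and at 2794, 2707, 2839 and 3587 in small intestine. Its tissues did not overlap, but the gap was only 0.15 on the deposited scale, and SI_11 stood above the other 3 intestinal libraries. The difference of Itgb1 was 0.42 ± 0.19 (means 2219 ± 239.5 and 2982 ± 407, 95% interval -0.01 to 0.86, adjusted p = 0.126) and was not called. It was called by limma voom on the recovered reads (0.43 ± 0.10, adjusted p = 0.00444, where 26.1% of all genes were called higher), with an intensity trend in limma (adjusted p = 0.00872) and on genes with at least 10 reads (adjusted p = 0.0261), whereas with libraries centred on the median of all genes its direction reversed to -0.48 (adjusted p = 0.428).

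The promoter windows of the β pair are shown for the contrast in their differences. That of Itgb7 is chr15:102231886-102232185 on the minus strand and that of Itgb1 is chr8:128685404-128685703 on the plus strand, both in GRCm38.p6, with capitals as above.
Itgb7: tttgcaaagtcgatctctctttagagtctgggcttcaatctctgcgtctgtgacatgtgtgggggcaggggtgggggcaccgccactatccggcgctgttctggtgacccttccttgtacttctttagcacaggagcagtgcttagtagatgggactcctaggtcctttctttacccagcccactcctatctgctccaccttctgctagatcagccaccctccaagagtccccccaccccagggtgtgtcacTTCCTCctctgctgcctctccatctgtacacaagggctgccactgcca
Itgb1: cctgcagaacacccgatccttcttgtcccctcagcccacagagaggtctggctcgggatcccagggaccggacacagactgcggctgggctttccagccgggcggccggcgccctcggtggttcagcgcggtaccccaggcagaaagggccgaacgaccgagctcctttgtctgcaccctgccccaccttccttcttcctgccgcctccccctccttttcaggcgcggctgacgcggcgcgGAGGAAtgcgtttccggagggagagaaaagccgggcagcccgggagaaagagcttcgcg
Each window held a single PU.1 match, from 2 to 7 on the minus strand in Itgb7 and from -9 to -4 in Itgb1, and none of the other motifs. GC content was 56.3% in the Itgb7 window and 67.3% in that of Itgb1, with a median of 52.7% over all windows. RefSeq windows matched 5 of the 9 genes, and Itgal, Itgb2, Itgae and Selplg were not matched.

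Itgae (ENSMUSG00000005947, chromosome 11, 73090583 to 73147446, plus strand) encodes αE (CD103), which pairs with β7 and is typical of intraepithelial T cells and some dendritic cells. It stood at 100.4, 93.3, 116 and 97.6 normalised counts in bone marrow (105 to 143 reads) and at 56.8, 47.2, 47.0 and 49.8 in small intestine (34 to 52 reads). All intestinal libraries lay under all bone marrow libraries, and Itgae was the 1 gene of the 9 for which SI_6 was the highest intestinal library. The means were 102 ± 9.80 and 50.2 ± 4.56, so bone marrow was 2.03-fold higher, and the difference was -0.97 ± 0.18 (adjusted p = 0.00271, 95% interval -1.37 to -0.57). It was called in this direction under all 15 alternatives tried, between -1.87 and -0.91. The sum of 13 T cell markers was 71.3 to 112 normalised counts in bone marrow and 203 to 288 in small intestine. Of these, 4 were called higher, led by Cd4 at 16.0 ± 7.11 and 126 ± 16.3. Cd4 was by far the largest part of the intestinal sum, ahead of Lck at 23.1 ± 5.38. Cd3e, Cd8a and Cd8b1 were the others called higher. The T cell receptor and CD3 genes Trac, Trbc1, Trbc2, Cd3d and Cd3g were not called, nor were Lck, Zap70, Cd2 and Cd5. Among those not called, Cd3d (-0.54) and Cd2 (-0.26) had differences in the opposite direction. The sum of 10 epithelial markers was 75.6 to 131 and 6312 to 48446, highest in SI_6, with all 10 called higher, led by Muc2 at 11.3 ± 8.54 and 7324 ± 6653. None of these markers was at 0 in a tissue, and their part in the Itgae level was not tested.

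Selplg (ENSMUSG00000048163, chromosome 5, 113818536 to 113832644, minus strand) encodes PSGL-1, the ligand of P-, E- and L-selectin. It stood at 746, 679.5, 722 and 515 normalised counts in bone marrow and at 1088, 1230.1, 1299.6 and 1537 in small intestine. The tissues did not overlap, with BM_5 the lowest and SI_11 the highest library. The means were 666 ± 104 and 1289 ± 188, a ratio of 1.94, and the difference was 0.95 ± 0.21 (adjusted p = 0.00714). It shrank to 0.05 with libraries centred on the median of all genes (SE 0.47, limma adjusted p = 0.941). Selplg stayed called at 0.89 both after quantile normalisation (limma adjusted p = 0.00235) and with centring on genes with at least 10 reads (0.0216).

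**Figure D2:**
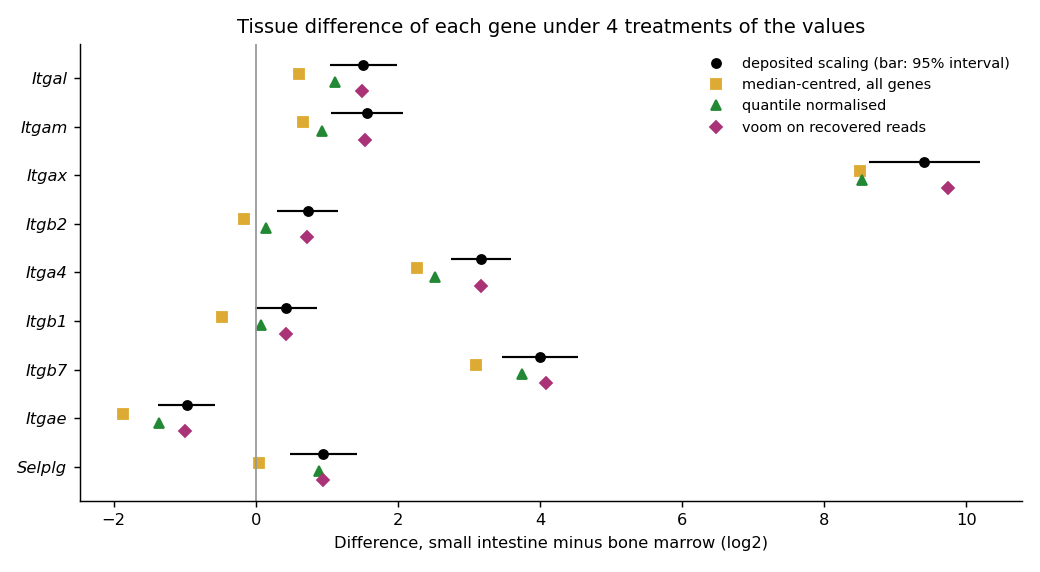
Difference of each of the 9 genes, small intestine minus bone marrow in log2 units, as deposited with limma 95% intervals (bars), with libraries centred on their median over all genes, after quantile normalisation and by limma voom on recovered reads (no bars). Itgax, Itga4 and Itgb7 stay above 0 and Itgae below 0 under each of them, whereas Itgb2 (0.73 as deposited, -0.17 centred on the median of all genes) and Itgb1 (0.42 and -0.48) change sign.

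Ratios between genes within a library do not change when all its values are multiplied by a factor. In all, 7 such ratios, on levels per kilobase of exon, were compared by 2-sided exact permutation tests over the 70 assignments of 8 libraries, which cannot give a p below 0.0286, with Benjamini-Hochberg adjustment over the 7, and tissue values are geometric means. Itgb7 relative to Itgb1 was 0.0238, 0.0364, 0.0229 and 0.0216 in bone marrow and 0.302, 0.325, 0.357 and 0.340 in small intestine. Itgb7 RNA thus went from 39.1-fold under that of Itgb1 to 3.03-fold under it, a log2 difference of 3.69 (exact permutation p = 0.0286, adjusted 0.04). The ratios are built from the values given above for each gene, so they are not separate evidence. Among the 3 β genes, Itgb7 made up 0.760% ± 0.168 of the level per kilobase in bone marrow and 7.79% ± 0.271 in small intestine, whereas Itgb1 held 29.6% ± 1.18 and 23.6% ± 1.06. Itgb2 held 69.6% ± 1.04 and 68.6% ± 0.913 of that pool, and its ratio to Itgb1 and Itgb7 together was 2.29 and 2.19 (log2 difference -0.07, exact permutation p = 0.257, adjusted 0.3).

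**Figure D3:**
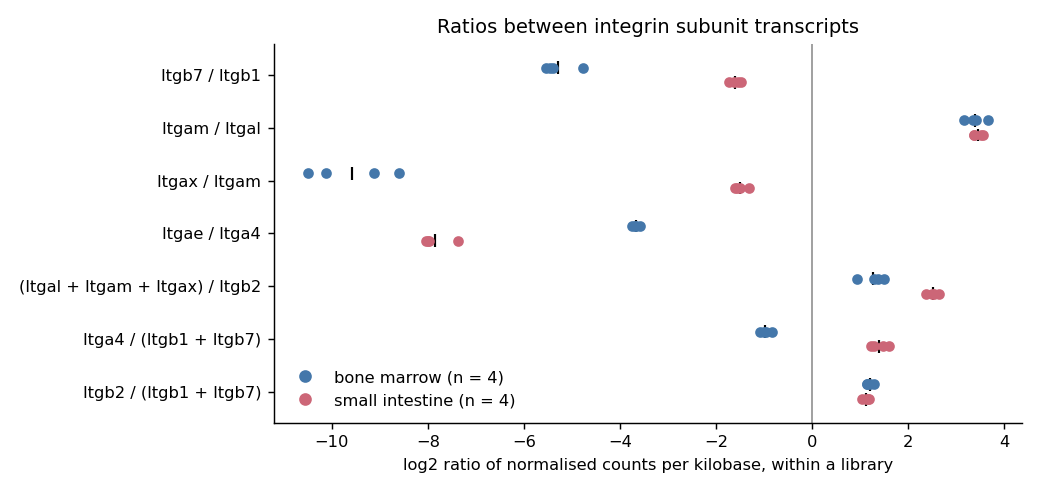
Ratios between integrin genes in each library, from normalised counts per kilobase of exon (log2 scale), with points for the 4 bone marrow and 4 small intestine libraries and black ticks for tissue means. Itgax relative to Itgam separates the tissues most (0.0013 against 0.355), and Itgam relative to Itgal overlaps between them (10.5 against 10.9).

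Among the β2 partners, Itgam relative to Itgal was 10.2, 10.6, 8.96 and 12.7 in bone marrow and 10.3, 11.7, 10.3 and 11.4 in small intestine. These values overlapped (log2 difference 0.05, exact permutation p = 0.686, adjusted 0.686). Itgax relative to Itgam was between 0.000691 and 0.00257 in bone marrow and between 0.330 and 0.403 in small intestine (log2 difference 8.09, exact permutation p = 0.0286, adjusted 0.04). Of the pool of these 3 α genes, Itgax held 0.132% ± 0.080 in bone marrow and 24.6% ± 1.63 in small intestine, Itgam 91.2% ± 1.10 and 69.1% ± 1.68, and Itgal 8.70% ± 1.13 and 6.33% ± 0.341. The α genes together exceeded Itgb2 by 2.41-fold in bone marrow and 5.68-fold in small intestine (log2 difference 1.24, exact permutation p = 0.0286, adjusted 0.04). In the other family, Itga4 relative to Itgb1 and Itgb7 together was 0.510 in bone marrow libraries and 2.64 in intestinal ones (log2 difference 2.37, same p values). RNA for α4 was thus under that of its partners in each bone marrow library (0.472 to 0.559) and above it in each intestinal library (2.34 to 3.04). Itgae relative to Itga4 was 0.0786 and 0.00433 (log2 difference -4.18, same p values), with SI_6 at 0.006 above the other intestinal libraries at 0.00379 to 0.00396.

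**Figure D4:**
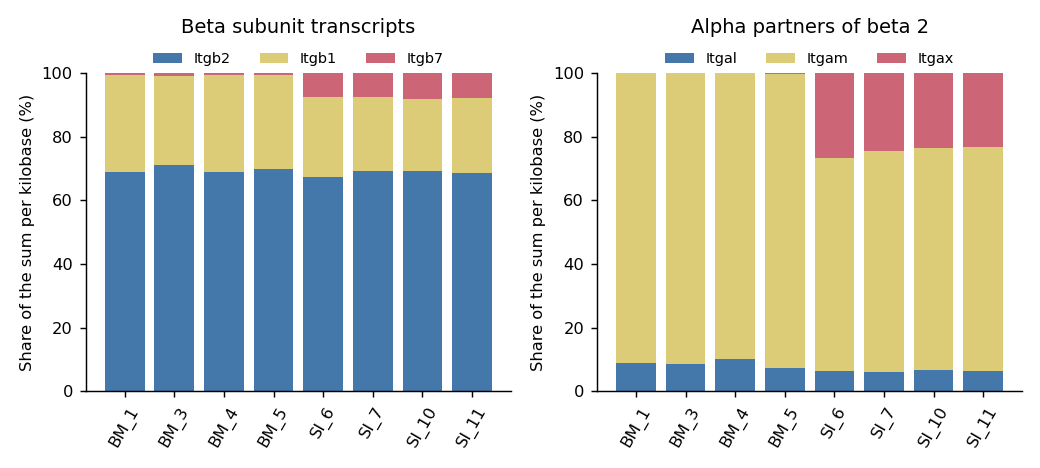
Share of each subunit in percent of its pool, on normalised counts per kilobase of exon, as 1 stacked bar for each of the 8 libraries, with the 3 β subunits at the left and the 3 α partners of β2 at the right. On average Itgax takes 24.6% of the α pool in small intestine against 0.132% in bone marrow, and Itgb7 takes 7.79% of the β pool against 0.760%.

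Per kilobase of exon, the order of mean levels in bone marrow was Itgam (2814 normalised counts per kilobase), Itgb2 (1276), Itgb1 (544), Itga4 (283), Itgal (266), Selplg (156), Itgae (22.2), Itgb7 (14.0) and Itgax (3.98). Neighbours in this order had separate ranges over the 4 libraries except Itga4 and Itgal. In small intestine the order was Itgam (8426), Itgax (2961), Itga4 (2568), Itgb2 (2129), Itgal (768), Itgb1 (731), Selplg (302), Itgb7 (242) and Itgae (11). There, the ranges overlapped between Itgax and Itga4, Itga4 and Itgb2, Itgal and Itgb1, and Selplg and Itgb7. On these lengths Itgax went from the lowest place to the second, and Itgae from the seventh to the last. Other gene lengths were not tried for this order. The Itga4 exons span 13978 bases together and its longest transcript 9767. By counts not divided by length, Itga4 ranked 27 and Itgax 123 among all genes in small intestine.

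The libraries were not interchangeable within a tissue. SI_11 had the highest intestinal value for 8 of the 9 genes and SI_6 the lowest for 7, while BM_5 had the lowest bone marrow value for 6. Leaving out any 1 of the 8 libraries left 7 genes called higher, 1 called lower and 9 without overlap. The gene whose profile over the 8 libraries was most like that of each of the 9 was Ip6k1 for Itgal (Pearson r = 0.9988 over 8 libraries, among 8662 genes), Trim56 for Itgam (0.9969), Tnik for Itgax (0.9997), Golga5 for Itgb2 (0.9964), Cd300a for Itga4 (0.9998), Sri for Itgb1 (0.9838), Pde1b for Itgb7 (0.9991), Nom1 for Itgae (0.9986) and Wdfy4 for Selplg (0.9964). These correlations rest mainly on the step between 2 tissues, since the libraries of a tissue share it.

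Of 121 other genes of adhesion in 8 lists, 65 were called higher and 25 lower in small intestine and 31 were not called, with a median difference of 1.22. As shares these were 53.7% higher and 20.7% lower, against 22% and 12.9% of all genes. Of the 114 that averaged 10 reads or more, 54.4% were called higher and 21.9% lower, against 34.6% and 28.6% of all genes at that depth, so the share called lower was under that of genes of this depth. With libraries centred on the median of all genes, 42 of the 121 were called higher and 29 lower. They were 5 and 2 of the other α subunits, 2 and 0 of the other β genes, and 6 and 4 of the ligands. Of the selectins and adhesion genes they were 3 and 3, and of the genes for PSGL-1 sugars and sulfation 5 and 3. The activation genes gave 6 and 4, the linkers and kinases 11 and 7, and the tetraspanins and partners 4 and 6. Of all calls over all genes, 63.2% were higher as deposited and 29.5% under that centring. Both are shares of the genes called, which numbered 13402 and 14501 of 38392, and not shares of all genes. In the 8 lists together, calls were 65 higher and 25 lower as deposited, and 42 higher and 29 lower under that centring. Most calls under that centring were thus higher in the lists together but lower over all genes. Among 13 other α subunits, 8 were called higher and 1 lower, with a median of 1.92. Itga3, a laminin receptor chain, stood at 1.13 ± 1.18 and 128 ± 119 normalised counts in bone marrow and small intestine (4.77 ± 0.66, adjusted p = 0.000634), highest in SI_6 at 294. Itga2b, the platelet chain αIIb, rose from 20.3 ± 11.6 to 446 ± 128 (4.34 ± 0.41), while 8 platelet and megakaryocyte markers, Itga2b among them, summed to 169 to 306 and 829.6 to 1156 with 2 called higher and 1 lower. Ppbp led that list, at 70.4 ± 51.4 and 468 ± 53.9. Itga5, the fibronectin receptor chain, fell from 599 ± 58.2 to 172 ± 26.3 (-1.78 ± 0.19), and Itga6 was at 1379 ± 225 and 769 ± 607 (-1.13 ± 0.49, adjusted p = 0.112). Among 6 other β genes, 3 were called higher and none lower, with Itgb4 at 8.95 ± 5.23 and 156 ± 96.2 and Itgb6, both epithelial chains, at 5.72 ± 8.33 and 50.9 ± 27.8, and Itgb5 at 14.3 ± 4.99 and 29.8 ± 22 was not called. Without BM_5, 5 of these 6 were called. Like the epithelial marker sum, Itga3, Itga6, Itgb4, Itgb5 and Itgb6 were highest in SI_6. Itga6 stood at 1637 there and at 304 to 729 in the other intestinal libraries. The part of epithelial RNA in these genes was not tested.

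**Figure D5:**
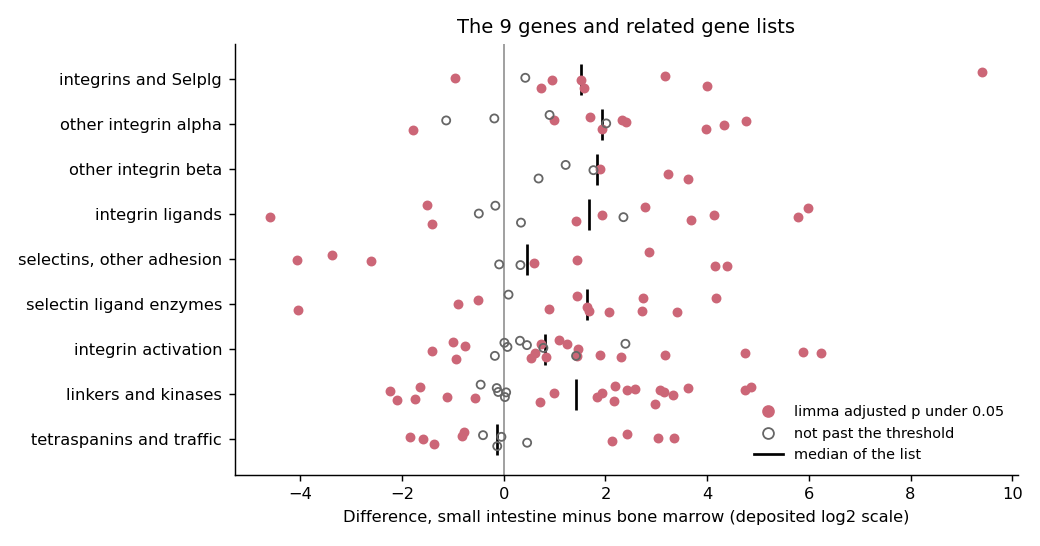
Difference, small intestine minus bone marrow in deposited log2 units, of each of the 9 genes and of the genes in 8 related lists, with filled points for genes called by limma, open points for the others and a black tick at the median of each list. Calls numbered 8 higher and 1 lower among other α chains (5 and 2 with libraries centred on the median of all genes), 9 and 3 among selectin ligand enzymes (5 and 3), and 4 and 5 among tetraspanins and traffic partners (4 and 6).

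Integrin ligands were called higher in 7 and lower in 3 of 14 cases (median 1.68). Icam1, which β2 integrins bind, rose from 49.5 ± 22.3 to 3217 ± 544 normalised counts (5.99 ± 0.30, adjusted p = 3.02e-06). Vcam1, the ligand of α4β1, fell from 5777 ± 755 to 236 ± 32.4 (-4.59 ± 0.20, adjusted p = 1.43e-06), and the junctional protein gene Jam3 fell from 82.6 ± 16.4 to 26.6 ± 5.67. The E-cadherin gene Cdh1, which is also in the epithelial list, was at 17.7 ± 6.69 and 1475 ± 1295 (5.78 ± 0.56, adjusted p = 9.4e-05), highest in SI_6 at 3341. Fn1, fibronectin, was not called (149 ± 30.7 and 189 ± 41.3). Of 10 selectins and other homing adhesion genes, 5 were called higher and 3 lower (median 0.46). Pecam1 (CD31) rose from 384 ± 64.0 to 8162 ± 1127 and the P-selectin gene Selp from 12.3 ± 5.16 to 273 ± 51.3, while Spn (CD43) fell from 4431 ± 468 to 271 ± 81.6 and the E-selectin gene Sele from 653 ± 42.6 to 61.6 ± 19.6. Cd24a was abundant and not called (8506 ± 615 and 10753 ± 1807). The 8 endothelial markers summed to 50.6 to 112 in bone marrow and 452 to 596 in small intestine, with 7 called higher and Vwf at 15.2 ± 11 and 117 ± 18.7, and none was at 0. Their part in Pecam1 and Selp was not tested.

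Genes of the sugars and sulfation of PSGL-1 were called higher in 9 and lower in 3 of 13 cases (median 1.64). The sulfotransferase genes Tpst1 and Tpst2 were both among those called higher. The fucosyltransferase genes of selectin ligands moved in opposite directions, with Fut4 up from 278 ± 43.5 to 5037 ± 693 (4.16 ± 0.20, adjusted p = 2.57e-06) and Fut7 down from 106 ± 18.8 to 3.67 ± 2.29 (-4.05 ± 0.29, adjusted p = 1.88e-05). No library overlapped in either gene, since Fut7 had at least 88.3 in each bone marrow library and at most 6.55 in each intestinal one. The sialyltransferase gene St3gal6 rose from 12.1 ± 3.65 to 161 ± 22.9, and the galactosyltransferase gene B4galt1 fell from 3829 ± 366 to 2052 ± 265 (-0.90 ± 0.19, adjusted p = 0.00529). The chaperone gene C1galt1c1 was not called (206 ± 41.6 and 224 ± 74.3).

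Genes of integrin activation, which switch the receptor from inside the cell, were called higher in 14 and lower in 4 of 26 cases (median 0.80). Fyb, the adaptor ADAP, rose from 307 ± 10.9 to 23501 ± 3003 (6.23 ± 0.18, adjusted p = 2.55e-07). Fermt1, the epithelial kindlin, stood at 5.77 ± 11 and 304 ± 235, highest in SI_6. Rasgrp2, an exchange factor for Rap1, fell from 1554 ± 87.0 to 587 ± 94.9 (-1.41 ± 0.19), and Rap1a fell from 1579 ± 171 to 784 ± 92.6 (-1.01 ± 0.19, adjusted p = 0.0032). Tln1, the talin that binds integrin tails, was at 7101 ± 496 and 9766 ± 1169 and was not called (0.45 ± 0.18, adjusted p = 0.0845).

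Linkers and kinases downstream of integrins were called higher in 15 and lower in 6 of 26 cases (median 1.41). The adaptor gene Bcar1 (p130Cas) was at 0.395 ± 0.470 and 83.6 ± 52.7 and the α-parvin gene Parva at 2.35 ± 3.52 and 111 ± 78.2, both highest in SI_6. The tensin gene Tns3 fell from 1678 ± 121 to 389 ± 219.9 and Vav1, an exchange factor of leukocytes, from 1885 ± 72.9 to 439.9 ± 37.8 (-2.09 ± 0.17, adjusted p = 3.36e-05). Lims1, the adaptor PINCH, was not called, at 4370.4 ± 468 and 4428 ± 362 (0.02 ± 0.18, adjusted p = 0.941). Of 13 tetraspanins and other partners, 4 were called higher and 5 lower (median -0.13). Cd9, a tetraspanin bound to β1 integrins, rose from 854 ± 108 to 8779 ± 1201 and Slc3a2 (CD98 heavy chain) from 577 ± 59.7 to 4780.1 ± 736, whereas Cd47 fell from 11635 ± 886 to 3269 ± 555 and Cd81 from 2201 ± 149.8 to 752 ± 242. Cd53 was not called (2883 ± 138 and 2648 ± 326).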

How the data were processed

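The authors sorted eosinophils, amplified cDNA, sequenced single ends, aligned and counted reads per gene with nf-core/rnaseq on GRCm38 with Ensembl release 86, and transformed counts by the variance stabilisation of DESeq2 in R 4.0.3, so the deposited values are on a log2 scale. Which aligner that pipeline ran and its strand setting are not stated in the sources read. Inverting the transformation gave whole reads for 100% of values in each library (tolerance 0.05 reads) and size factors from 0.721 to 1.53. Column names gave tissue but not sample, so libraries carry column names, and no column was left out. All 38392 identifiers were found in GENCODE M21 (GRCm38), 38000 with the same symbol, which gave positions and exon lengths.

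The deposited values of the 8 libraries were compared with limma 3.58.1 (R 4.3.3, constant prior, no covariate, no filter). That choice followed their log2 unit, which does not suit the count model of the authors. The count model was not fitted to the recovered reads, on which limma voom was run as an alternative. Ratios used levels per kilobase with a pseudocount of 0.5 normalised counts. Python 3.11.15, matplotlib 3.10.9, numpy 2.4.6, scipy 1.17.1 and pandas 2.3.3 were used. Promoter sequences are from RefSeq on GRCm38.p6.

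The 9 genes and all lists were chosen with earlier results of these data known. Named are the 9 genes, from each related list the 2 called genes with the largest rise and the 2 with the largest fall and the most abundant gene not called, for each of the 9 the most correlated gene with a mean of at least 100 normalised counts (predicted genes, clones and pseudogenes left out), the leading gene of each marker list and those at 0, Itgad, and genes overlapping the 9. Siglecf, Epx, Prg2, Ccr3 and Il5ra, and Fcgr1, Mrc1 and Cd163, were added after their values were seen. So were the genes of the neutrophil, dendritic cell, T cell and mast cell lists named besides the leading gene and those at 0. Alternatives were other scalings, limma voom on the recovered reads, a log2 scale with a pseudocount of 1, a filter at 10 reads, an intensity trend, leaving out each library, and for ratios other gene lengths and pseudocounts.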

Additional observations from a re-analysis of the deposited data

Results flagged for a closer look

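A library stood far from the other 3 of its tissue in 3 of the 32 groups of 4 tested, where the gap to the nearest library is divided by the range of the group and set against Dixon's critical value for 4 samples. Chance flags about 1 in 20 groups. In bone marrow, BM_5 was the lowest for Itgb2, with a gap of 0.877 of the range. In small intestine, SI_11 was the highest for Itgb1, with a gap of 0.831. SI_6 was the highest intestinal library for Itgae relative to Itga4, with a gap of 0.904.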

How the results depend on the processing

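No paired analysis was possible because the labels number bone marrow samples 1 to 4 and small intestine samples 5 to 8, so the tissues share no number, and the columns carry none of these numbers. Centring each library on its median over all genes moved the median difference of all genes from 0.37 to -0.53 and left 3 of the 9 genes called higher, 4 of the 9 without overlap, and 10 genes called in the list of integrin activation (18 as deposited). Under it the direction of Itgb2 reversed to -0.17 and that of Itgb1 to -0.48. This median lies among genes with few reads, since only 16215 of the 38392 genes averaged 10 reads or more. With centring on the median of those 16215 genes, Itgb2 stood at 0.67 and Itgb1 at 0.36, neither called. The share of all calls that were higher was 63.2% as deposited, 29.5% with centring on all genes and 59.5% with centring on the 16215. After quantile normalisation that share was 45.8%. Leaving out 1 library moved the list of other β genes between 2 and 5 called, with 5 without BM_5. Itga4 (2.27 to 3.27), Itgax (8.51 to 9.74), Itgb7 (3.10 to 4.14) and Itgae (-1.87 to -0.91) kept call and direction under every alternative run. The 5 ratios past the threshold stayed past it under other gene lengths and pseudocounts, and with 1 library left out the smallest exact p is 0.0571, so those values have no test. Depth limits Itgax and Itgb7 most, with 15 to 79 reads in the bone marrow libraries, and Itgae in small intestine, with 34 to 52.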

Other observations

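The cell type lists not set beside a gene above gave the following sums of normalised counts. The 10 eosinophil markers summed to 2703 to 4731 in bone marrow and 33421 to 46193 in small intestine, with 4 called higher and 5 lower, led by Alox15 at 159 ± 134 and 19775 ± 2245. The 11 mast cell markers summed to 4729 to 6363 and 7814 to 16102, with 3 called higher and 3 lower, led by Hdc at 2441 ± 298 and 11509.5 ± 3165, and Mcpt4 and Tpsab1 were at 0 in all bone marrow libraries. The higher intestinal sum was mainly Hdc. The 3 called lower were Kit (3031 ± 430 and 1189 ± 573), Ms4a2 (95.8 ± 16.3 and 4.24 ± 2.59) and Cpa3 (37.9 ± 13.3 and 13.9 ± 6.14). The 8 B and plasma cell markers summed to 323 to 555 and 516 to 2701, with 1 called higher and 2 lower, led by Jchain at 14.7 ± 10.1 and 1471 ± 965. The 8 fibroblast markers summed to 26.8 to 85.5 and 192 to 791, with 7 called higher, led by Col3a1 at 2.21 ± 2.72 and 123 ± 100.2. The dendritic cell list was led by Cd74 at 198 ± 42.7 and 3141 ± 2251. The fibroblast, B and plasma cell, dendritic cell and epithelial sums were each highest in SI_6 among the intestinal libraries.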
